A study of Mus musculus with 2 samples.

Results

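The 10 genes described here are Fos, Fosb, Fosl1, Fosl2, Jun, Junb, Jund, Atf3, Egr1 and Ier2, the immediate-early genes of the AP-1 transcription factor with Egr1 and Ier2. They were chosen by name, with earlier results of these data known, and all 10 are among the 32245 genes measured in both libraries. Each gene's level was compared between the genotypes within classes of cells that were gated on a pair of marker genes. Stat3 is a signal transducer and transcription factor, and the study deleted it in cartilage cells of the mouse to ask how cartilage of the growing skeleton depends on it.

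AP-1 is a dimer of basic leucine zipper proteins, made of 1 Jun protein with a Fos, Jun or Atf partner. Its genes belong to the immediate-early class: growth factors, cytokines and mechanical or cellular stress switch many of them on within minutes, through MAP kinases acting on factors already in the cell, and the RNAs are short-lived. Release of cells from solid tissue by enzymes is itself known to raise many of these RNAs, and in skeletal tissue AP-1 is known for roles in cartilage, bone and matrix-degrading enzymes.

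Knee cells of 1-month-old female mice were measured by droplet 3′ single-cell RNA sequencing in 1 library per genotype, each a pool of 2 to 3 mice. Stat3fl/fl mice, which carry the floxed allele on both chromosomes and no Cre, gave the control. Acan-Cre+/Cre;Stat3fl/fl mice gave the mutant, in which, per the study's methods, a tamoxifen-inducible Cre driven from the aggrecan gene was activated on postnatal days 2 and 3; cells that do not use aggrecan would keep Stat3. Joints were crushed and digested in dispase and collagenase overnight in the cold and then for hours at body temperature, and live cells negative for CD31, Ter119 and CD45 were sorted. With 1 library per genotype no difference has a replicate check, and no test was possible: every ratio compares these 2 libraries and not the genotypes. Where a pair of values is given below, the control comes first.

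The files held 4903 control and 1340 mutant cells with a median of 4344 and 3743 unique molecular identifiers (UMIs, one per captured RNA molecule), and 2 cell barcodes occurred in both. Mitochondrial RNA exceeded 5% in 14.2% and 36.7% of cells, and a globin UMI was found in 75.7% and 8.43%. Stat3 itself stood at 143 and 104 counts per 1e+06 UMIs (CPM) in Sox9+Col2a1+ cells, a log2 ratio of -0.46. Over the other 5 classes named below its ratio was 0.48 in Pdgfra+Dpt+, -0.51 in Tnmd+Fmod+ (from 13.9 mutant UMIs), -0.12 in Ibsp+Bglap+, 0.23 in Cxcl12+Adipoq+ and 0.96 in Rgs5+Notch3+ cells; whether the 3′ tag lies within the deleted part was not checked.

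The 6 classes used held at least 20 cells in each library. They were Sox9+Col2a1+ (chondrocyte genes, 1013 control and 335 mutant cells), Pdgfra+Dpt+ (fibroblast genes, 323 and 121), Tnmd+Fmod+ (tendon genes, 263 and 35), Ibsp+Bglap+ (osteoblast genes, 114 and 87), Cxcl12+Adipoq+ (marrow stromal genes, 96 and 58) and Rgs5+Notch3+ (mural genes, 46 and 36). In each class the class's own marker list was above 0 for every gene in both libraries. In Sox9+Col2a1+ cells the 8 osteoblast markers summed to 901 and 4617 CPM. In Tnmd+Fmod+ cells the 14 chondrocyte markers summed to 8596 and 2932 CPM, and the 10 fibroblast markers (16142 and 13658 CPM) summed to more than the 8 tendon markers (12140 and 8916 CPM). The osteoblast markers summed to 25339 and 64225 CPM in Ibsp+Bglap+ cells, and the chondrocyte markers to 1298 and 302 CPM in Cxcl12+Adipoq+ cells. The part of these markers in the ratios below was not tested, other than by the cell filters named beside them.

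Positions are on GRCm38, the build also called mm10, with Gencode M21 gene bounds. Fos is at chr12:85473890-85477273, Fosb at chr7:19302696-19310051, Fosl1 at chr19:5447547-5455946 and Fosl2 at chr5:32135801-32157842. Jun is at chr4:95049034-95052222, Junb at chr8:84974484-84978718, Jund at chr8:70698949-70700616 and Atf3 at chr1:191170296-191218039. Ier2 is at chr8:84661331-84662852. Jun, Jund and Ier2 have a single annotated exon, an uncommon structure that leaves no intron to splice. Bounds overlap with a gene on the opposite strand for Fosl1 (Ccdc85b), Jun (Junos) and Junb (Prdx2), and also for Jund and Atf3 with small annotated genes. The use of strand in the counting is not given in the sources used here. Junos stood at or below 20.7 CPM in every class, and the log2 ratio of Prdx2 ran from -0.51 to -0.02, opposite in sign to that of Junb. That of Ccdc85b ran from 0.22 to 1.39, the same sign as that of Fosl1. Ccdc85b stood at 45.4 and 77.2 CPM in Pdgfra+Dpt+ cells, against 6.64 and 52.2 CPM for Fosl1. In Sox9+Col2a1+ cells it stood at 69.5 and 80.9 CPM, against 155 and 203 CPM for Fosl1. The part of these overlaps in the counts was not tested.

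The sequence just before the start of 4 of these genes is printed because their levels differ below, with Jun going one way and Junb the other, and Fos and Fosb parting in most classes. Each line gives the 250 bases before the RefSeq start (GRCm38.p6), read 5′ to 3′ along the gene's own strand, at chr12:85473640-85473889 (plus strand) for Fos, chr7:19310046-19310295 (minus) for Fosb, chr4:95052223-95052472 (minus) for Jun and chr8:84978749-84978998 (minus) for Junb. Capitals mark TGACG and TGACATCA, and in the window of Fos also the TATA box, TATAAA, each searched on both strands.
Fos: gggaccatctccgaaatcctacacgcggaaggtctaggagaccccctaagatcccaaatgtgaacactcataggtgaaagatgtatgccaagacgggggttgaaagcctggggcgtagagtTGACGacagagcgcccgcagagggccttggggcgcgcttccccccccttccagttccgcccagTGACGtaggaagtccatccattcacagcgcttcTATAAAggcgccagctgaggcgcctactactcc
Fosb: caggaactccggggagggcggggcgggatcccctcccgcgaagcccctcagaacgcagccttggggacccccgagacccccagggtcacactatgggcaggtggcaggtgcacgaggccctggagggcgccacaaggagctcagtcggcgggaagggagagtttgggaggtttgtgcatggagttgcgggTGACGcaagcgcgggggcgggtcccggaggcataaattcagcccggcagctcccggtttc
Jun: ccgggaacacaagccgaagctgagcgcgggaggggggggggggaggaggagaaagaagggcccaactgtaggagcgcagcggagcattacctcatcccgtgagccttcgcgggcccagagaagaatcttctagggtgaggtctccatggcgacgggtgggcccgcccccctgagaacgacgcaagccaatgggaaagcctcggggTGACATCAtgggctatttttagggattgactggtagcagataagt
Junb: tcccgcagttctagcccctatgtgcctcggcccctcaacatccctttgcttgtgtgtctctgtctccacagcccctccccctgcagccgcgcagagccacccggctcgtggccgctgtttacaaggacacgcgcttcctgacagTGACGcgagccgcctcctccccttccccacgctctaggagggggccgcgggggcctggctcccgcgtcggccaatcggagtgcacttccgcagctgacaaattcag

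TGACG is the first part of the cyclic AMP response element TGACGTCA, TGACATCA a variant that AP-1 dimers of Jun and Atf2 are known to use. Fos held TGACG with its ends 129 and 125 bases before the start and again 66 and 62 bases before it, with the TATA box 33 to 28 bases before it. Fosb held TGACG 60 to 56 bases and Junb 106 to 102 bases before the start. Jun held TGACATCA 45 to 38 bases before the start, and TGACG in neither strand. Of 32851 promoters of this length, 17.8% held TGACG, 2.93% TGACATCA, 12.4% the TATA box and 1.55% the whole TGACGTCA, which contains TGACG and which none of the 4 printed windows held. A match describes the letters and is neither a binding site nor a cause. The pentamer ATTTA, found in the AU-rich elements of many short-lived mRNAs, occurred 4 times in the longest annotated 3′ UTR of Fos and of Jun, 8 times in that of Fosl2 and 0 times in that of Ier2. The other genes held it 1 to 3 times, and 63.2% of 21677 genes held it at least once.

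**Figure D1:**
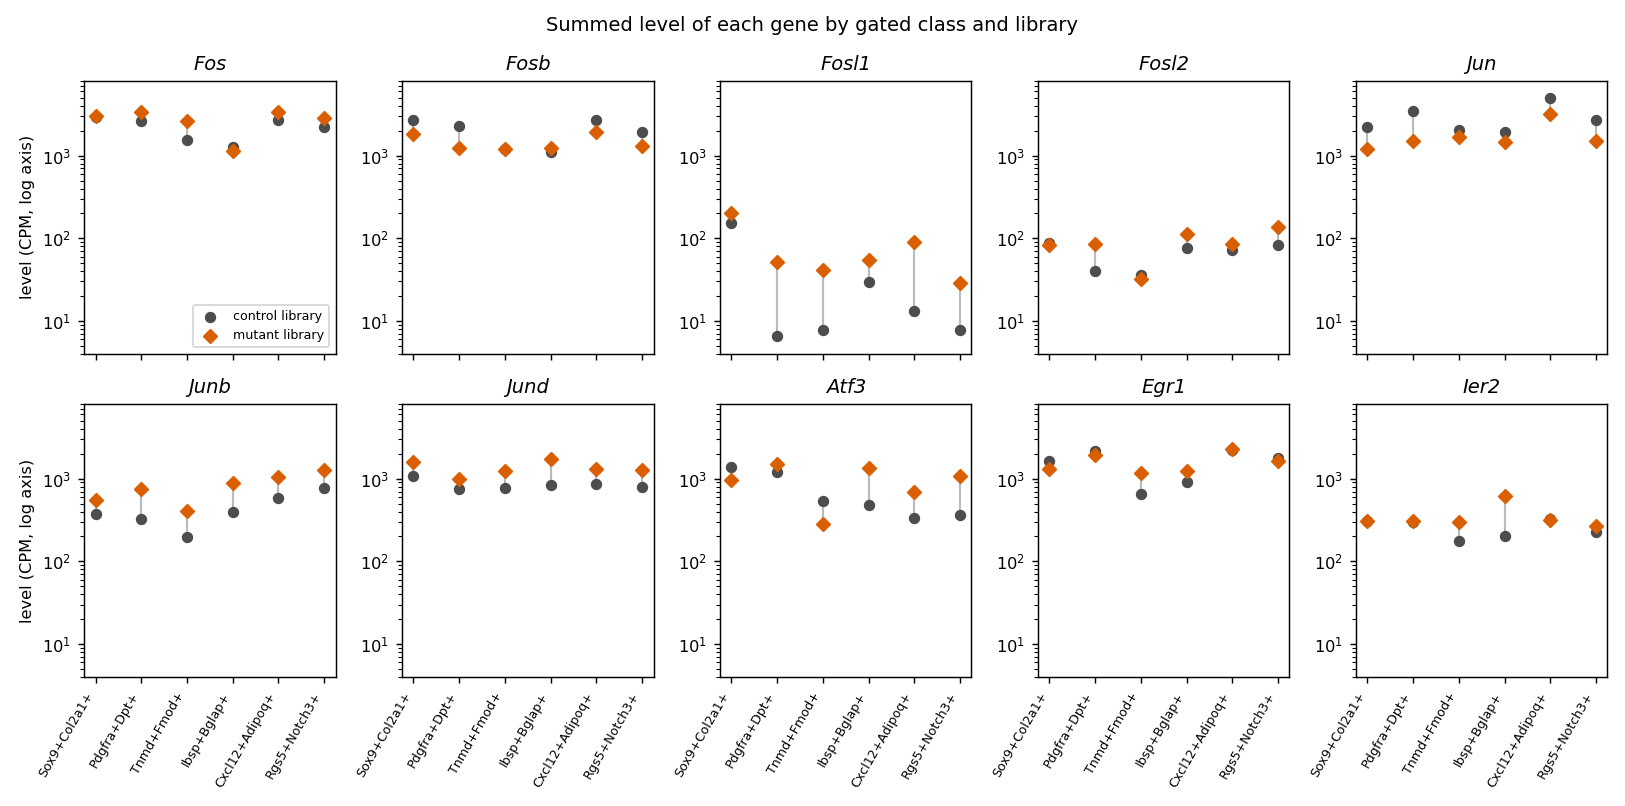
Level of each of the 10 genes in each gated class, as summed CPM on a log axis, in the control library (grey circles) and the mutant library (orange diamonds), 1 library each with no error bar; a grey line joins the pair. Jun is lower and Junb and Jund are higher in the mutant library in all 6 classes, and Fosl1 is highest in Sox9+Col2a1+ cells, at 155 and 203 CPM.

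A level below is the sum of a gene's UMIs over the cells of a class per 1e+06 UMIs of those cells, and a ratio is the log2 of the mutant over the control level after 1 CPM was added to each. UMIs count molecules at the 3′ end, so levels of different genes were set side by side without division by length. A ratio was given where either library held at least 10 estimated UMIs of the gene, which left 58 of 60 gene and class pairs. Of these, 39 were above 0 and 19 below, with 11 at least 2-fold higher and 1 at least 2-fold lower in the mutant library. Of all genes with a mean of at least 10 CPM in a class, 35.2% to 45.3% were above 0, depending on the class. The shares at least 2-fold higher ran from 3.05% to 15.2%, and those at least 2-fold lower from 6.25% to 22.6%. A pair under 10 UMIs in 1 library was counted only because it was high in the other. Over the 54 pairs with 10 UMIs in both libraries, 36 were above 0 and 18 below, 9 at least 2-fold higher and 1 at least 2-fold lower. The genes thus did not move as a block.

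The Jun family split. Jun, the founding member and a strong activator that is also induced by its own protein, was lower in the mutant library in 6 of 6 classes. Junb, a Jun protein with weaker activation that is itself an immediate-early gene, was higher in 6 of 6. So was Jund, the least inducible Jun protein and one present in resting cells.

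In Sox9+Col2a1+ cells Jun stood at 2216 and 1193 CPM (log2 ratio -0.89). In Pdgfra+Dpt+ cells it stood at 3513 and 1514 CPM, a ratio of -1.21. This was the only pair at least 2-fold lower, in a class where 7.75% of all genes were. The levels of Jun were 2033 and 1687 CPM in Tnmd+Fmod+ cells (-0.27) and 1909 and 1462 CPM in Ibsp+Bglap+ cells (-0.38). In Cxcl12+Adipoq+ cells, where Jun was highest in both libraries, they were 4923 and 3231 CPM (-0.61). Rgs5+Notch3+ cells held 2676 and 1496 CPM (-0.84).

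The Tnmd+Fmod+ value was the least firm of the 6: 3 of the 35 mutant cells carried 46.4% of the class's Jun UMIs. Without the 3 cells with most Jun UMIs in each library the ratio there was -0.90. Among cells with at most 5% mitochondrial RNA, 20 of them mutant, it was 0.18. In Sox9+Col2a1+ cells Jun was lower among cells with at most 5% mitochondrial RNA (-0.86) and among those above 5% (-1.05).

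Junb was 375 and 550 CPM in Sox9+Col2a1+ cells (0.55). It was 325 and 755 CPM in Pdgfra+Dpt+ cells (1.21), 195 and 405 CPM in Tnmd+Fmod+ cells (1.05) and 401 and 896 CPM in Ibsp+Bglap+ cells (1.16). Cxcl12+Adipoq+ cells held 582 and 1042 CPM (0.84) and Rgs5+Notch3+ cells 764 and 1267 CPM (0.73), the highest level of Junb in either library. Among Sox9+Col2a1+ cells above 5% mitochondrial RNA, 75 control and 70 mutant, Junb went the other way, with a ratio of -0.39 against 0.63 in the remaining cells.

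Jund varied little over the control classes, from 752 to 1086 CPM, and stood between 997 and 1746 CPM in the mutant classes. Its log2 ratios were 0.54 in Sox9+Col2a1+, 0.41 in Pdgfra+Dpt+, 0.69 in Tnmd+Fmod+, 1.04 in Ibsp+Bglap+, 0.59 in Cxcl12+Adipoq+ and 0.71 in Rgs5+Notch3+ cells. In Sox9+Col2a1+ cells it was higher in the mutant library on both sides of the mitochondrial limit, at 0.60 and 0.41.

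**Figure D2:**
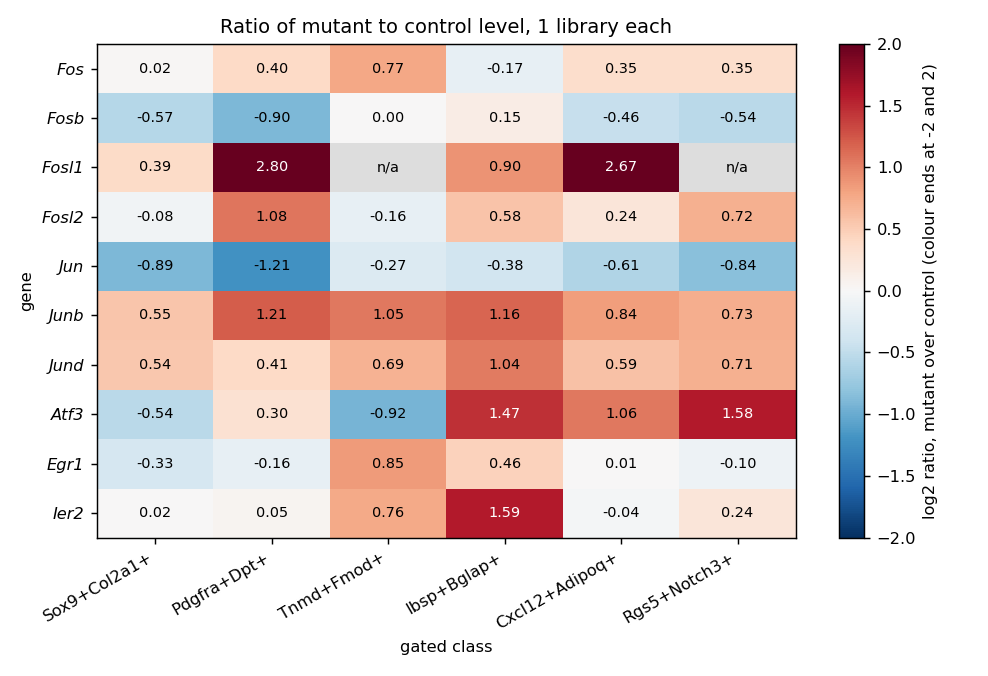
Log2 ratio of the mutant to the control level for each gene (rows) in each gated class (columns); red is higher and blue lower in the mutant library, the number in each cell is the ratio, and grey cells had under 10 UMIs in both libraries. The Jun row is blue throughout, from -1.21 to -0.27, and the Junb and Jund rows are red throughout.

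One direction in every class was no rarity. Of 5790 genes with a mean of at least 10 CPM in all 6 classes, 10% were higher and 18% lower in the mutant library in every class. Set against these shares, 2 of the 10 genes higher throughout (Junb and Jund) and 1 lower throughout (Jun) are not counts that stand apart from other genes. Fosl1 would be the third by the rule of the 5790 genes, although its levels in Tnmd+Fmod+ and Rgs5+Notch3+ cells rested on under 10 UMIs. The median ratio over all genes was itself below 0, from -0.18 in Sox9+Col2a1+ cells to -0.02 in Tnmd+Fmod+ cells. Relative to it, Jun ran from -1.12 to -0.21, Junb from 0.73 to 1.33 and Jund from 0.50 to 1.22, so no direction turned. Among cells without a globin UMI, where 5 classes kept 20 cells, Jun ran from -1.28 to -0.37, Junb from 0.54 to 1.15 and Jund from 0.42 to 0.90.

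The make-up of the Jun family does not depend on the total of the other genes. Jun gave 60.3% of the UMIs of Jun, Junb and Jund in control Sox9+Col2a1+ cells and 36.0% in mutant ones. Over the 6 control classes its share ran from 60.3% to 77.2%, and over the mutant ones from 35.6% to 57.8%, lower in 6 of 6. The classes come from the same libraries, and shares of other gene families were not taken for comparison. The shares of a family add up to a whole, so they depend on each other and restate the ratios above. Junb gave 6.51% to 18.1% of the control UMIs of the family and 12.2% to 31.3% of the mutant ones. For Jund these ranges were 13.7% to 29.5% and 23.5% to 47.5%. Both were higher in 6 of 6 classes, also where each cell's own share was averaged, so that cells with many UMIs did not decide the direction.

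**Figure D3:**
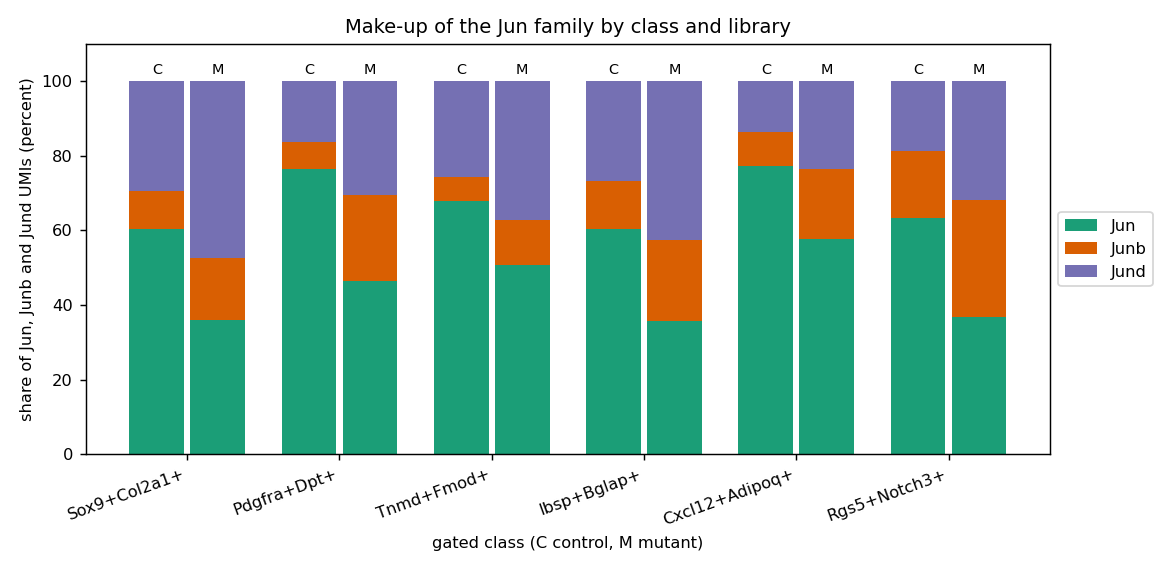
Share of the summed UMIs of Jun (green), Junb (orange) and Jund (purple) in each gated class, in percent, for the control (C) and mutant (M) library. The green part is smaller in the mutant bar of every class, for example 76.5% and 46.4% in Pdgfra+Dpt+ cells.

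Junb and Jun were also compared within each cell. This count rests on the same UMIs as the ratios above, so it is not separate support for them. It was made at each cell's full depth, and the mutant cells were deeper. The median was 4975 UMIs per control and 8521 per mutant Sox9+Col2a1+ cell. The part of depth in the shares that follow was not tested. Junb exceeded Jun in 11.2% of control Sox9+Col2a1+ cells (95% exact binomial interval 9.28 to 13.3; these intervals cover counting error only) and in 32.2% of mutant ones (27.3 to 37.5). In Pdgfra+Dpt+ cells the shares were 3.10% (1.49 to 5.62) and 28.1% (20.3 to 37.0). In Tnmd+Fmod+ cells, with 35 mutant cells, they were 11.0% (7.51 to 15.5) and 17.1% (6.56 to 33.6), and these intervals overlapped.

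Because mutant cells of every class were deeper, shares of cells with a UMI were compared after each cell was thinned to 2000 UMIs. At that depth, and with 96 control and 33 mutant cells left out as shallower, Jun was found in 81.5% (78.8 to 83.9) of control and 63.9% (58.2 to 69.3) of mutant Sox9+Col2a1+ cells. Before thinning the shares were 91.6% and 83.9%. Junb was found in 43.6% (40.4 to 46.9) and 56.0% (50.2 to 61.6) of the thinned cells, and in 66.1% and 74.9% before. For Jund the thinned shares were 82.4% (79.8 to 84.8) and 83.4% (78.8 to 87.5). All these intervals cover the counting of cells within a library, so neither their overlap nor its lack bears on the genotypes. A level of these RNAs in cells that should lack them is not given here, so the part of free RNA in the shares was not tested.

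**Figure D4:**
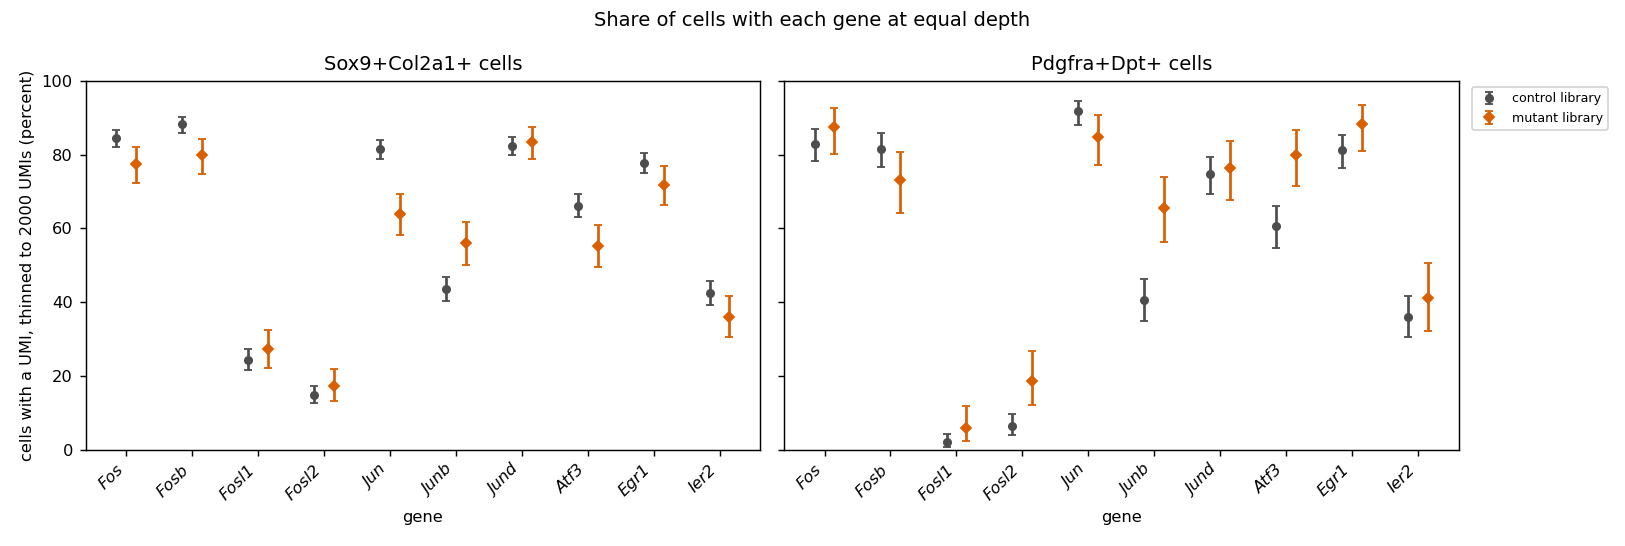
Percent of cells with a UMI of each gene after thinning to 2000 UMIs, in Sox9+Col2a1+ cells (left) and Pdgfra+Dpt+ cells (right), for the control (grey) and mutant (orange) library; bars are 95% exact binomial intervals, which cover counting error only. In both classes Junb is found in more cells of the mutant library, 40.5% and 65.5% in Pdgfra+Dpt+ cells. Jun is found in fewer Sox9+Col2a1+ cells, while its intervals overlap in Pdgfra+Dpt+ cells.

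The Fos family was led by Fos and Fosb, which gave nearly all of its UMIs in every class. Fos, the classic partner of Jun, stood at 2971 and 3008 CPM in Sox9+Col2a1+ cells (0.02). Single cells spread widely: from the 25th to the 75th percentile of control cells, Fos ran from 622 to 4510 CPM. Outside cartilage Fos was higher in 4 of 5 classes, at 0.40 in Pdgfra+Dpt+, 0.77 in Tnmd+Fmod+, 0.35 in Cxcl12+Adipoq+ and 0.35 in Rgs5+Notch3+ cells, and in Ibsp+Bglap+ cells the ratio was -0.17. The Tnmd+Fmod+ ratio was 0.18 without the 3 cells with most Fos UMIs in each library and 1.32 among cells with at most 5% mitochondrial RNA.

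Fosb, a paralogue of Fos induced by much the same stimuli, mostly went the other way. It was 2681 and 1811 CPM in Sox9+Col2a1+ cells (-0.57) and 2294 and 1233 CPM in Pdgfra+Dpt+ cells (-0.90). Its ratio was -0.46 in Cxcl12+Adipoq+ and -0.54 in Rgs5+Notch3+ cells, 0.00 in Tnmd+Fmod+ and 0.15 in Ibsp+Bglap+ cells. In Tnmd+Fmod+ cells 3 mutant cells carried 49.9% of the Fosb UMIs. The ratio there was -0.75 without the 3 top cells of each library and 0.58 among cells with at most 5% mitochondrial RNA. As a share of the family's UMIs, Fos ran from 49.1% to 54.9% over the control classes and from 44.5% to 71.3% over the mutant ones, higher in 5 of 6. The corresponding ranges for Fosb were 43.5% to 49.4% and 25.8% to 48.8%, lower in 5 of 6. Ibsp+Bglap+ cells were the exception for both.

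Fosl1, which codes for Fra-1, was the member most tied to a class. It was 155 and 203 CPM in Sox9+Col2a1+ cells (0.39), while the other 5 control classes held 6.64 to 29.2 CPM. In the control library 39.3% of Sox9+Col2a1+ cells had a UMI, and 2.17% to 9.65% of the cells of the other classes did. In the mutant library these shares were 49.6% and 11.4% to 24.0%. At equal depth the Sox9+Col2a1+ shares were 24.4% (21.7 to 27.3) and 27.2% (22.2 to 32.5). Among Sox9+Col2a1+ cells above 5% mitochondrial RNA the ratio of Fosl1 was -0.36, against 0.48 in the remaining cells.

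In Pdgfra+Dpt+ cells Fosl1 stood at 6.64 and 52.2 CPM, from 9.06 and 55.2 estimated UMIs, a ratio of 2.80. In Cxcl12+Adipoq+ cells it stood at 13.3 and 90.2 CPM, from 3.79 and 30.8 UMIs (2.67), and in Ibsp+Bglap+ cells at 29.2 and 55.2 CPM (0.90). The Pdgfra+Dpt+ and Cxcl12+Adipoq+ pairs had 10 UMIs in the mutant library only, so that their direction followed from being counted; Sox9+Col2a1+ and Ibsp+Bglap+ cells had them in both. Among cells without a globin UMI the Cxcl12+Adipoq+ ratio was 1.51. Tnmd+Fmod+ cells held 7.66 and 40.8 CPM and Rgs5+Notch3+ cells 7.68 and 28.4 CPM, each on under 10 UMIs, and no ratio was taken.

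Fosl2, which codes for Fra-2 and is the more stable Fos protein of resting cells, was low throughout, at 35.6 to 87.7 CPM over the control classes and 31.8 to 139 CPM over the mutant ones. Its ratio was -0.08 in Sox9+Col2a1+ cells, 1.08 in Pdgfra+Dpt+, -0.16 in Tnmd+Fmod+, 0.58 in Ibsp+Bglap+, 0.24 in Cxcl12+Adipoq+ and 0.72 in Rgs5+Notch3+ cells. The Tnmd+Fmod+ ratio rested on 40.1 and 6.95 estimated UMIs and the Rgs5+Notch3+ ratio on 9.78 and 23.9. Each of these pairs thus reached 10 UMIs in 1 library only. In the mutant Tnmd+Fmod+ cells 3 cells carried 71.5% of the Fosl2 UMIs. Without the 3 cells with most Fosl2 UMIs in each library the Tnmd+Fmod+ ratio was -1.49, from fewer mutant UMIs still.

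Atf3, a stress-induced Atf protein that pairs with Jun proteins, differed most between classes. It was 1397 and 963 CPM in Sox9+Col2a1+ cells (-0.54) and 534 and 281 CPM in Tnmd+Fmod+ cells (-0.92). It was higher in the mutant library in the other 4: 1214 and 1498 CPM in Pdgfra+Dpt+ (0.30), 481 and 1331 CPM in Ibsp+Bglap+ (1.47), 330 and 689 CPM in Cxcl12+Adipoq+ (1.06) and 362 and 1087 CPM in Rgs5+Notch3+ cells (1.58). In the control library Atf3 was highest in Sox9+Col2a1+ cells, while 3 mutant classes stood above the mutant Sox9+Col2a1+ cells. Among Cxcl12+Adipoq+ cells without a globin UMI the ratio was 0.42, which is no longer 2-fold. Among Sox9+Col2a1+ cells above 5% mitochondrial RNA the ratio was 0.76, against -0.51 in those at or below it. Among Tnmd+Fmod+ cells at or below that limit, 20 of them mutant, the ratio was -0.32.

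Egr1, a zinc finger factor induced through serum response factor, showed no common direction. It stood at 1630 and 1297 CPM in Sox9+Col2a1+ cells (-0.33), 2166 and 1935 CPM in Pdgfra+Dpt+ (-0.16), 652 and 1176 CPM in Tnmd+Fmod+ (0.85), 901 and 1240 CPM in Ibsp+Bglap+ (0.46), 2248 and 2268 CPM in Cxcl12+Adipoq+ (0.01) and 1778 and 1654 CPM in Rgs5+Notch3+ cells (-0.10). The Tnmd+Fmod+ ratio was 0.08 without the 3 cells with most Egr1 UMIs in each library and 1.45 among cells with at most 5% mitochondrial RNA.

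Ier2, a growth-factor-induced gene whose product is a nuclear regulator, was near level in 4 classes, with ratios from -0.04 to 0.24. It was 177 and 301 CPM in Tnmd+Fmod+ (0.76) and 205 and 622 CPM in Ibsp+Bglap+ cells (1.59), the class where Atf3, Junb and Jund were also at least 2-fold higher. Among Ibsp+Bglap+ cells above 5% mitochondrial RNA, 22 control and 36 mutant, none of the 4 was 2-fold higher: Ier2 was at 0.26, Atf3 at 0.84, Junb at 0.89 and Jund at 0.54. In the remaining cells they were at 1.85, 1.66, 1.23 and 1.16.

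Class by class, the median ratio of the 10 genes was -0.03 in Sox9+Col2a1+ cells, with 5 of 10 above 0 where 35.2% of all genes were, and none at least 2-fold higher or lower, against 3.05% and 6.25% of all genes. In Pdgfra+Dpt+ cells the median was 0.35, with 7 of 10 above 0 (42.1% of all genes) and 3 at least 2-fold higher (4.92%), among them Fosl1. In Tnmd+Fmod+ cells it was 0.69 over 9 genes, with 6 above 0 (45.3%) Junb alone at least 2-fold higher (9.79%) and none 2-fold lower (16.8%). Ibsp+Bglap+ cells had 4 of 10 at least 2-fold higher (6.35% of all genes) and none 2-fold lower (14.6%), a median of 0.74 and 8 of 10 above 0 (38%). The median was 0.30 in Cxcl12+Adipoq+ cells, with 7 of 10 above 0 (45%) Fosl1 and Atf3 at least 2-fold higher (10.5%) and none 2-fold lower (16.9%). In Rgs5+Notch3+ cells it was 0.35 over 9 genes, with 6 above 0 (45.3%) Atf3 at least 2-fold higher (15.2%) and none 2-fold lower (22.6%).

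Over all cells of a library, with no gate, all 10 ratios were above 0: Fos 1.06, Fosb 0.40, Fosl1 1.43, Fosl2 1.17, Jun 0.03, Junb 1.86, Jund 1.34, Atf3 0.88, Egr1 0.82 and Ier2 1.09. By this measure 6 of 10 were at least 2-fold higher, where 10.5% of all genes were. The ungated sums differ in the cells they hold: 75.7% of control and 8.43% of mutant cells had a globin UMI. Their part in these sums was not tested. Jun, lower in each gated class, was near level in the ungated sum.

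Most cells of the joint classes held several of the RNAs at once. At 2000 UMIs per cell the median Sox9+Col2a1+ cell held 6 of the 10 in either library, and 1.09% of control and 1.66% of mutant cells held none. The median was 5 to 6 in the other control classes and 5 to 7 in the other mutant classes. Over 917 thinned control Sox9+Col2a1+ cells the highest correlations between members were those of Fos with Fosb (Pearson r = 0.53) and of Fos with Jun (0.48). Over 302 mutant cells they were those of Fos with Fosb (0.59) and of Junb with Egr1 (0.52). Fosl1 with Jun gave -0.11 and -0.13. The cells of a library share its preparation, so these values describe 2 libraries.

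The genes whose levels went most like each member's over the 12 class and library points, out of 3166 genes of at least 50 CPM on average, were Secisbp2l (r = 0.91), Rxylt1 and Phf20l1 for Jun, Yaf2 (0.89), Irf1 and H2afz for Junb, and Strap (0.92), Gadd45b and Rpl22l1 for Jund. They were Agfg1 (0.89), Eif4a2 and Hspa4 for Fos, Smoc1 (0.85), Khdrbs1 and Snx18 for Fosb, Btg2 (0.93), Zfas1 and Nars for Fosl1, and Midn (0.86), Rbbp6 and Suco for Fosl2. For Atf3 they were Map3k2 (0.83), Tubb6 and Bag3, for Egr1 Dnajb1 (0.86), Rab10 and Qk, and for Ier2 Tbc1d15 (0.79), Arf6 and Zfp655. No gene was shared between the lists of any members, those of the Jun family included. With 12 points and 3166 genes, such values describe these points only.

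The rest of the pathway was read from lists of named genes, counted over genes that reached 10 CPM in each of the libraries, since a gene below that in 1 library would be counted only through the other. The lists were chosen with earlier results of these data known, so their counts describe the lists and test nothing. In Sox9+Col2a1+ cells 6983 genes met this, of which 35.8% were higher in the mutant library and 2.23% at least 2-fold higher, with a median of -0.18. Of 37 other immediate-early genes there, 30 were higher and 7 lower, with a median of 0.34, while the 10 genes had a median of -0.03. Over the other classes the list's median ran from 0.58 to 1.10. Its highest genes in Sox9+Col2a1+ cells were Dusp2, a nuclear MAP kinase phosphatase (10.7 and 68.8 CPM, 2.57), Ier5 (91.9 and 335 CPM, 1.85) and Irf1, an interferon-response factor (27.9 and 80.2 CPM, 1.49). Its lowest were Klf10 (-0.52), Nfkbiz (-0.50) and Rhob (-0.43). Ier5 was at least 2-fold higher in all 6 classes, from 1.32 to 2.44.

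Of 12 kinases and factors that lie ahead of AP-1, 3 were higher in Sox9+Col2a1+ cells and 9 lower, where 35.8% of all genes were higher, with a median of -0.30 against -0.18. In the other classes the medians ran from -0.53 to -0.12, and those of all genes from -0.17 to -0.02. Among genes with a mean of 10 CPM, the lowest were Map3k1 (41.2 and 8.29 CPM, -2.18), a kinase at the top of the Jun N-terminal kinase cascade, Mapk14 (-1.17), which codes for p38 alpha, and Mapk9 (18.7 and 8.06 CPM, -1.12), which codes for JNK2; Map3k1 and Mapk9 are in none of these counts. The highest were Map2k1 (9.98 and 16.5 CPM, 0.67; not counted), Mapk3 (0.25) and Map2k4 (0.18). Of 7 feedback inhibitors of MAP kinases, 6 were higher, where 35.8% of all genes were, with a median of 0.23. In the other classes this list gave no common direction: 4 of 9 were higher in Pdgfra+Dpt+ (43% of all genes), 4 of 7 in Tnmd+Fmod+ (48.8%), 6 of 8 in Ibsp+Bglap+ (39.1%), 5 of 11 in Cxcl12+Adipoq+ (46.8%) and 6 of 10 in Rgs5+Notch3+ cells (44.1%), with medians from -0.03 to 0.29. Dusp6 (1.11), Spry2 (0.95) and Dusp10 (9.13 and 17.1 CPM, 0.84; not counted) were highest in Sox9+Col2a1+ cells, with Dusp16 (-0.28), Spred1 (0.23) and Spred2 (0.23) at the other end.

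Of 13 other members of the wider AP-1 family, 7 were higher in Sox9+Col2a1+ cells, where 35.8% of all genes were, with a median of 0.04 against -0.18 for all genes. In the other classes the median ran from -0.08 to 0.29. Maff (0.99), Jdp2 (0.47) and Mafg (0.38) stood highest in Sox9+Col2a1+ cells, and Atf7 (-0.89) and Batf3 (-0.86) were among the lowest. Heat shock genes, which respond to stress of another kind, had 6 of 13 higher there and a median of -0.08, with Hspb1 (1.13), Hspb8 (1.06) and Hspe1 (0.55) highest and Dnajb1 (-0.66), Hsph1 (-0.63) and Hspa1b (-0.39) lowest. In the other 5 classes their median ran from 0.17 to 0.30.

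Of 14 genes known as AP-1 targets, 11 were higher in the mutant library in Sox9+Col2a1+ cells (35.8% of all genes) and 7 at least 2-fold higher (2.23%), with a median of 1.03. Like the other lists, this list was chosen with earlier results of these data known, and the difference from all genes was not tested. In the other classes the list's median ran from 0.41 to 1.36. At least 2-fold higher were 3 of 11 in Pdgfra+Dpt+ (3.72% of all genes), 4 of 10 in Tnmd+Fmod+ (7.93%), 5 of 10 in Ibsp+Bglap+ (4.61%), 6 of 9 in Cxcl12+Adipoq+ (7.66%) and 6 of 11 in Rgs5+Notch3+ cells (9.26%). Il11, a cytokine of the gp130 family, stood at 31.7 and 288 CPM (3.14). The chemokine genes Ccl2 (0.44 and 24.8 CPM) and Cxcl2 (1.32 and 28.9 CPM) were below 10 CPM in the control library and are in none of these counts. The matrix metalloproteinase genes Mmp13 (-0.38) and Mmp3 (-0.34) and the cyclin gene Ccnd1 (-0.17) were at the low end.

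**Figure D5:**
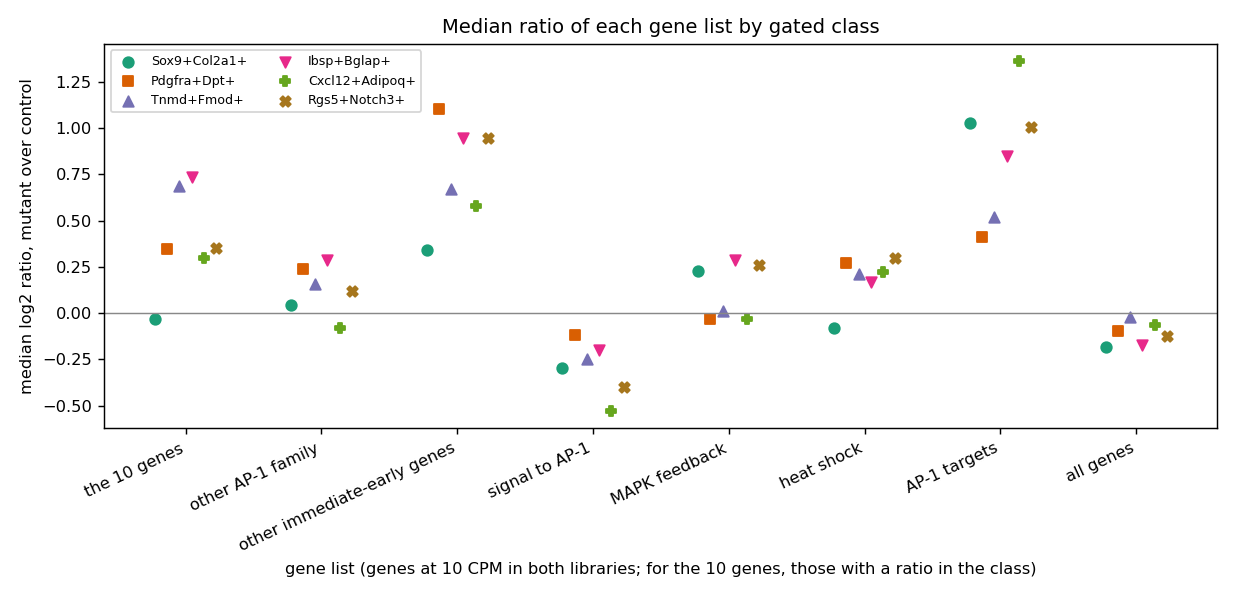
Median log2 ratio, mutant over control, of the 10 genes, of 6 lists of related genes and of all genes in each gated class (symbols), over genes that reached 10 CPM in each library for the lists and all genes; the line marks 0. Medians of other immediate-early genes and of AP-1 targets are above 0 in all 6 classes, up to 1.10 and 1.36. The 10 genes lie between -0.03 and 0.74. Medians of the genes ahead of AP-1 are below 0 in all 6 classes, and so are those of all genes, from -0.18 to -0.02.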

How the data were processed

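Knee cells of 1 control and 1 mutant pool were measured. Per the study's methods and the submitters' processing notes, the authors aligned reads to mm10 with STAR 2.7.3a in Partek Flow, removed duplicate UMIs, counted on Gencode and subtracted ambient RNA, which leaves estimated counts that need not be whole: 74.9% of control and 97.3% of mutant values above 0 lay within 0.1 of a whole number. Each gene's value in a cell was deposited as log2(CPM + 1), which the authors computed from the cell's estimated count total. The deposited percent columns give mitochondrial and ribosomal reads per cell, and the deposited number of expressed genes (a score, a whole number) matched the genes above 0. The authors' mark of selected chondrocytes, on 501 of 1013 control and 332 of 335 mutant Sox9+Col2a1+ cells, was not used, but the cells without a globin UMI are as many. Cells above the stated limit of 5% mitochondrial RNA were present and kept.

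Values were turned back into UMIs, summed over the cells of a class and library, and expressed as CPM; ratios used a pseudocount of 1 CPM. A class was the cells above 0 for both of 2 gate genes; Sox9+Col2a1+ cells entered no other class, and cells in several other gates none. Classes needed 20 cells per library. Total UMIs were 2.36e+07 and 7.45e+06. Background shares are over genes with a mean of at least 10 CPM; list counts, and the shares beside them, are over genes reaching 10 CPM in each library. On simulated counts for Sox9+Col2a1+ cells (19376 genes), 100% of 200 genes given a 2-fold change came out in the right direction. The changed genes all had at least 100 CPM. The cells of a simulated library shared 1 profile, with no variation between cells, mice or libraries. This checks the calculation only, and not whether a direction between the 2 real libraries would recur. With 1 library per genotype no test was made. The members, gates and lists were chosen with earlier results of these data known. All members were named, with the 3 highest and 3 lowest genes of each list in Sox9+Col2a1+ cells and the 3 most similar genes of each member, except where an item is not reported here; Fosl1 and Ier2 had no entry in the promoter table used here. Tools were Python 3.11.15, numpy 2.4.6, pandas 2.3.3, scipy 1.17.1 and scanpy 1.11.5 (Scrublet at an expected rate of 0.05, Leiden clusters).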

Additional observations from a re-analysis of the deposited data

Results flagged for a closer look

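Atf3 stood out because its ratio went opposite ways in 2 classes of cells by at least 0.5 on the log2 scale: 1.58 in Rgs5+Notch3+ cells (46 control and 36 mutant cells) and -0.92 in Tnmd+Fmod+ cells (263 and 35). The difference was not tested, since each genotype is 1 library. Rgs5+Notch3+ cells held 42.2 and 187 estimated UMIs of Atf3, and 3 cells of each library carried 44.2% and 49.6% of them. In the mutant Tnmd+Fmod+ cells 3 cells carried 53.6% of the Atf3 UMIs, and without the 3 cells with most Atf3 UMIs in each library the ratio there was -1.59. Among Tnmd+Fmod+ cells with at most 5% mitochondrial RNA, 20 of them mutant, it was -0.32, which falls short of the 0.5 rule.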

How the results depend on the processing

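The median ratio of the 10 genes in Sox9+Col2a1+ cells, -0.03, lay near 0 and crossed it with the setting. It was 0.0505 with cells weighted equally, 0.15 relative to the median of all genes, 0.0150 within the mitochondrial and count limits, -0.0847 in cells without a globin UMI, -0.0764 without called doublets, -0.0794 at 2000 UMIs per cell, -0.17 with at least 2 UMIs of each gate gene, -0.0919 with clusters in place of gates, -0.0932 without the 3 cells with most UMIs and -0.23 as the ratio of summed CPM. With both the globin and the limit filter, an alternative chosen after seeing the data, it was -0.0363, and 25 of 40 ratios were above 0 in place of 39 of 58, since 2 classes fell under 20 cells. Ratios at least 2-fold lower numbered 1, but 2 without globin cells, 5 with 2 UMIs of each gate gene and 4 without the top 3 cells. Of 656 single values under these alternatives 43 had the opposite sign to the reported value: 18 of Ier2, 7 each of Egr1 and Fos, 6 of Fosb, 4 of Fosl2, 1 of Jun and 0 of Junb, Jund, Fosl1 and Atf3. Jun ranged from -1.42 to 0.18, Junb from 0.28 to 1.53 and Jund from 0.32 to 1.22. At 2000 UMIs per cell Fosl1 kept a ratio in 1 class only, at 0.08. Cells above 5% mitochondrial RNA taken alone were not among these alternatives. In such Sox9+Col2a1+ cells the ratio was -0.39 for Junb, -0.36 for Fosl1 and 0.76 for Atf3, each opposite to the reported sign, and 0.41 for Jund. The cause of these moves was not tested. Cells called as doublets numbered 74 and 2, and the caller marked only 0.149% of the mutant cells. No paired analysis was possible because each genotype has 1 library.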

Other observations

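Within the control library, cells of a class with a globin UMI were set against those without. In Sox9+Col2a1+ cells (512 and 501) the log2 ratios of cells with over cells without globin were -0.05 for Jun, 0.19 for Junb and 0.02 for Jund, and Atf3 gave -0.38 and Fosb -0.15. Over all 6 classes Jun ran from -0.35 to -0.03, Junb from -0.37 in Pdgfra+Dpt+ cells (214 and 109) to 0.68 in Rgs5+Notch3+ cells (33 and 13), and Jund from -0.43 in Ibsp+Bglap+ cells (57 and 57) to 0.26. In Cxcl12+Adipoq+ cells (66 and 30) Atf3 gave -1.11.

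Cells in no gate, 2253 control and 649 mutant, went with the ungated sum: Junb was 114 CPM in the control and 781 in the mutant cells (2.77), Fos 573 and 1961 (1.77), and Jun 1008 and 1555 (0.62). Of these cells 84.4% and 14.8% held a globin UMI, and 21.4% and 49.9% had over 5% mitochondrial RNA.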
